A study of Mus musculus with 20 samples.

Results

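A set of 9 genes that make, recycle, phosphorylate or use nicotinamide adenine dinucleotide (NAD) were followed in mouse ventricle with and without Sorbs2: Nmrk1, Nmrk2, Nampt, Nmnat1, Nmnat3, Nadsyn1, Nadk, Cd38 and Nnt. They were chosen by name from NAD salvage and synthesis, after results of these data were known. All 9 were listed in both deposited tables, among 18657 genes at 6 months and 17808 at 6 weeks, and all 9 passed the filter on low values at both ages. Which measured values entered the choice is not recorded, so every comparison is treated as used: the calls and p values of these genes describe their place among all genes and support nothing further. There is no threshold in the choice.

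The Sorbs2 protein links actin filaments to the Z-disc of heart muscle, and the series asks how its loss leads to diastolic dysfunction. The untreated groups were wild-type (WT) and Sorbs2 knockout (KO) mice at 6 weeks of age (3 WT, 3 KO) and at 6 months (5 WT, 5 KO). At 6 months, 4 further KO mice had been injected on postnatal day 2 with AAV9-Tnnt2-Sorbs2 (KO+AAV). That vector is an adeno-associated virus in which the troponin T promoter, active in cardiomyocytes, drives Sorbs2, and no group received a control vector. The sources used here give no strain, sex or knockout allele. The labels number the libraries of a group as separate mice, and call the tissue left ventricle in 1 field and ventricular myocardium in another. Values are normalised counts, normalised separately at each age, so levels are compared within an age only.

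NAD carries electrons between dehydrogenases and the respiratory chain, and is also cleaved by sirtuins, poly(ADP-ribose) polymerases and Cd38, so cells rebuild it constantly. In salvage, Nampt turns nicotinamide into nicotinamide mononucleotide, and the riboside kinases Nmrk1 and Nmrk2 make the same mononucleotide from nicotinamide riboside. The Nmnat enzymes then complete NAD, Nadsyn1 amidates the nicotinic acid form, Nadk phosphorylates NAD to NADP, and Nnt in the inner mitochondrial membrane uses the proton gradient to make NADPH from NADH. Nmrk2 is known as the muscle form of the riboside kinase, and Nampt as the main source of NAD in the healthy heart.

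The starts of Nmrk2 and Nampt are shown because these genes make the same mononucleotide from different precursors and had log2 changes of opposite sign in KO at 6 months. The sequences are from RefSeq on GRCm38.p6, from 250 bases before to 50 after the start, 5′ to 3′ on the gene's own strand. Nmrk2 is at chr10:81201988-81202287 on the minus strand and Nampt at chr12:32820085-32820384 on the plus strand. Capitals mark matches to a searched motif.
Nmrk2: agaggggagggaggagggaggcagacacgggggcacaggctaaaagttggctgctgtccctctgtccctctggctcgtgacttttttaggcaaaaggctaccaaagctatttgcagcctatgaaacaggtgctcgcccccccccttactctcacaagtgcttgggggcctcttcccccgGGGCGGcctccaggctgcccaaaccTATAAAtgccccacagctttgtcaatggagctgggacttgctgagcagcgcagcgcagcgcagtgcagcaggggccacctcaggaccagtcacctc
Nampt: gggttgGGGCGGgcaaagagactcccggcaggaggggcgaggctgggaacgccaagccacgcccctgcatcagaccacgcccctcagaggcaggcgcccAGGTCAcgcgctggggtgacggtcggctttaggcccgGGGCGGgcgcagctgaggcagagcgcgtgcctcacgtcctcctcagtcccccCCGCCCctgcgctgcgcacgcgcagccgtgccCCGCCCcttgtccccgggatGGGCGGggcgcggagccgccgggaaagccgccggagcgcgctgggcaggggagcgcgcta
The 8 motifs searched, on both strands, were chosen after the values were seen: TATAAA for the TATA box, CCAAT for the CCAAT box, GGGCGG for the GC box, CACGTG for the E-box, CATTCC for the MCAT element, TGANTCA for the AP-1 site, TGACGTCA for the cyclic AMP element, and AGGTCA for the nuclear receptor element. No match shown overlaps another. The Nmrk2 window held 1 TATAAA, whose first base lies 46 bases before the start, and 1 GGGCGG. The Nampt window held no TATAAA, 5 GGGCGG (2 of them read as CCGCCC) and 1 AGGTCA. Of 32851 mouse promoter windows of this length, 13.6% held TATAAA, 35.7% GGGCGG and 16.3% AGGTCA. The remaining shares were 37.4% for CCAAT, 14.7% for CATTCC, 7.8% for TGANTCA, 7.2% for CACGTG and 1.8% for TGACGTCA. A match is a description of letters and not a site of binding. Windows were matched for 8 of the 9 genes.

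Some features of the libraries touch every result at 6 months. Sorbs2, the targeted gene, ranged from 494 to 1755 in KO, against 4562 to 5398 in WT (log2 change -2.52), and from 4696 to 17923 in KO+AAV. KO 1 and KO 5 held 1648 and 1755, and the other KO libraries at most 612. Library totals of normalised counts lay between 11359135 and 12222476 for KO, between 12492381 and 13670340 for WT and between 12024143 and 13041764 for KO+AAV. The nuclear RNA Malat1 was at 61423 to 91026 in WT 5, KO 1, KO+AAV 1 and KO+AAV 2, and at 20832 to 35651 in the other 10 libraries. Xist was above 1000 in 2 of the 5 WT, in 0 of the 5 KO and in 2 of the 4 KO+AAV libraries. The others are called low-Xist libraries, a class set by Xist alone. The summed level of 10 cardiomyocyte markers, none at 0, was between 788111 and 1067340 in KO, between 1290323 and 1569397 in WT and between 1133282 and 1760791 in KO+AAV. The summed level of 10 fibroblast markers, none at 0, was between 42930 and 59357 in KO, between 30599 and 45640 in WT and between 32472 and 43761 in KO+AAV. The sum of 5 atrial markers lay between 37420 and 126865 in KO, above all WT (5916 to 9973) and all KO+AAV libraries (7752 to 32735), the same separation as for Nmrk2 below, and KO 1 and KO 5 were highest in it. Nearly all of that sum was Nppa, a natriuretic peptide gene that loaded ventricles also express. Sln had medians of 2.05 in WT and 11.1 in KO. Myl7, the atrial myosin light chain, had medians of 3.07 in WT and 1.09 in KO, and Myl4 of 47.4 and 47.8. In KO 3, Myl7, Myl4 and Sln reached 459, 634 and 89.9, against at most 47.5, 89.2 and 9.55 in WT. Bmp10 was at 0 in all KO libraries and at most 1.88 in WT. The sum of 8 mural cell markers, none at 0, was lower in KO (7414 to 10012) than in all WT (11066 to 17903) and KO+AAV libraries (10087 to 12465). Skeletal muscle markers summed to at most 69.5 in any library at 6 months. Myh4 was at 0 in all WT and all KO libraries, Myh2 in all KO and Myh1 in all KO+AAV libraries. In RNA of whole tissue, fewer cells of a type and less RNA per cell cannot be told apart, and the part of cell makeup, Malat1 and sex in the results below was not tested except where a value without those libraries is given.

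Among the riboside kinases at 6 months, Nmrk2 rose in KO and Nmrk1 did not pass the test. Nmrk2 (chromosome 10, 81198170 to 81202051, minus strand, GRCm38) was at 250, 133, 129, 142 and 81.4 in WT 1 to 5. In KO 1 to 5 it was at 1465, 839, 669.9, 793 and 1799.7, and in KO+AAV 1 to 4 at 104, 229, 193 and 128. Every KO library lay above every WT and every KO+AAV library, and the last 2 groups overlapped. The means were 147 ± 62.2 in WT, 1113 ± 492 in KO (SD, n = 5 each) and 163 ± 57.7 in KO+AAV (n = 4). KO against WT was 7.44-fold (log2 2.90, 95% interval 2.22 to 3.57, adjusted p = 2.40e-05 by limma over all genes), rank 91 among 13419 tested genes from the highest change. KO+AAV against KO was -2.72 on the log2 scale (95% interval -3.44 to -2.01, adjusted p = 0.000383), and KO+AAV against WT 0.17 (-0.55 to 0.89, adjusted p = 0.775). The comparisons against KO share the KO libraries, so the rise and the fall are not separate observations of those libraries.

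**Figure D1:**
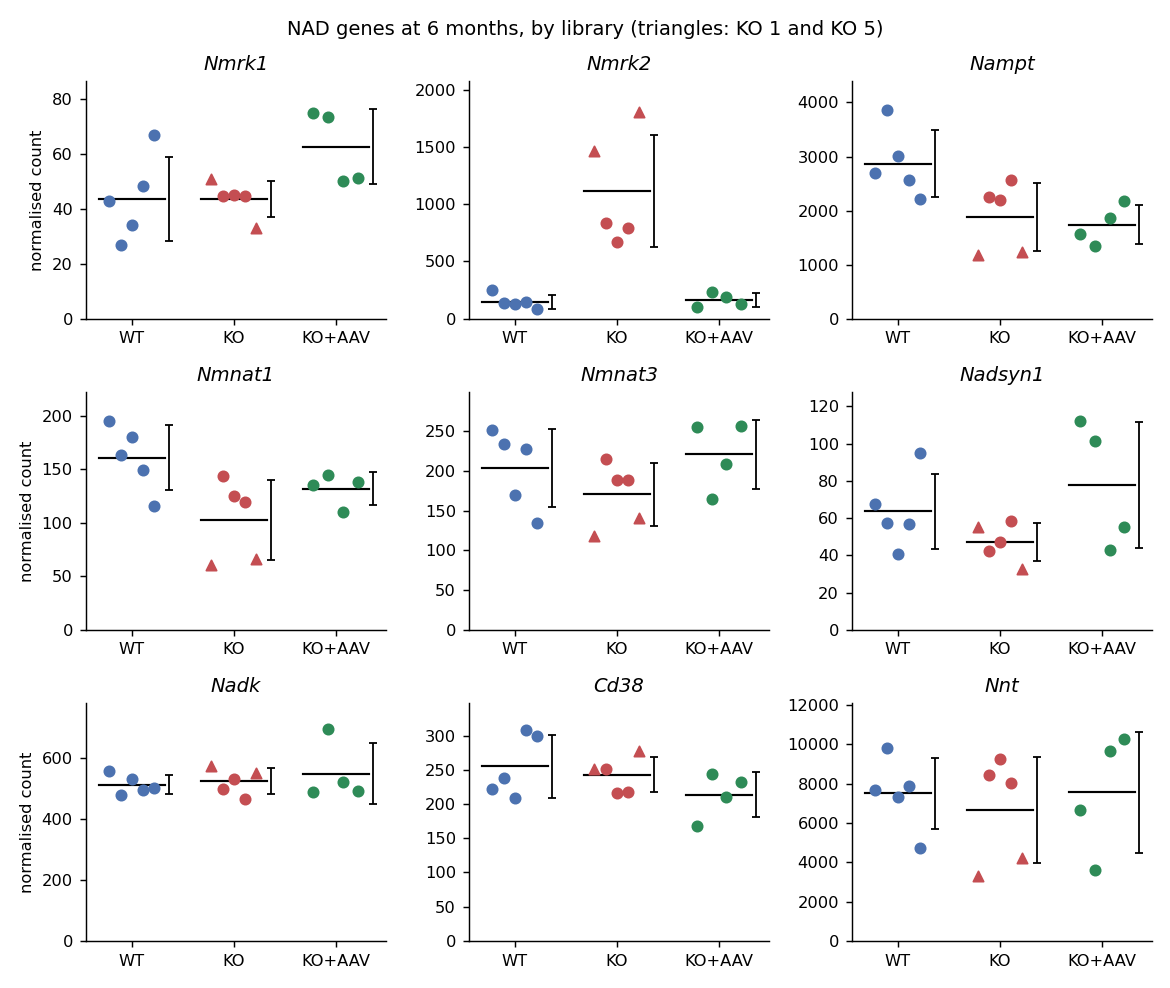
Normalised counts (linear axes from 0) of the 9 genes in each library at 6 months, with WT in blue, KO in red and KO+AAV in green. Horizontal lines are group means, the bars beside them 1 SD, and triangles mark KO 1 and KO 5; in the Nmrk2 panel all KO points lie above all others, while in the Nampt, Nmnat1, Nmnat3 and Nnt panels both triangles lie below the other KO points.

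The KO libraries were not alike in Nmrk2. KO 1 and KO 5, the KO libraries with more Sorbs2 signal, were also the highest in Nmrk2. Without KO 1 and KO 5 the log2 change was 2.46 (adjusted p = 0.000318), and without the library of highest Malat1 in each group 2.58 (adjusted p = 0.000192). Among the low-Xist libraries alone it was 2.66 (adjusted p = 0.000766). An opposite-strand gene, Atcayos, overlaps 14.6% of the exonic bases of Nmrk2, and 19.1% of the 31-base words of Nmrk2 are shared with other genes, most with Atcayos. The sources used here do not say whether reads were counted by strand, so reads of that overlap could be assigned to either gene. Atcayos itself was at 9.01 to 36.3 in the 14 libraries.

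Nmrk1 (chromosome 19), the more widely expressed riboside kinase, was at 26.7 to 66.9 in WT (median 42.8), 32.9 to 51.0 in KO (median 44.9) and 50.1 to 75.2 in KO+AAV (median 62.6). The KO range lay inside the WT range, and KO differed from WT by 0.05 on the log2 scale (95% interval -0.45 to 0.56). The ratio of Nmrk2 to Nmrk1 per kilobase of transcript was 3.93 ± 1.89 in WT, 28.2 ± 17.2 in KO and 2.83 ± 1.09 in KO+AAV. Its lowest KO value, 15.5, lay above its highest WT value, 6.11. The ratio re-uses the Nmrk2 values, which already separated KO from WT, and is not a separate observation.

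Nampt (chromosome 12, 32819545 to 32853349, plus strand), the enzyme that starts salvage of nicotinamide, was on average lower in KO, short of the threshold. It was at 2696, 3863, 3007, 2565 and 2215 in WT 1 to 5, and at 1170.5, 2247, 2191, 2562 and 1229 in KO 1 to 5. KO+AAV 1 to 4 held 1573, 1345, 1867 and 2169.5. KO overlapped WT through KO 2 and KO 4, whereas all 4 KO+AAV libraries lay below all 5 WT libraries. KO against WT was -0.66 (95% interval -1.14 to -0.17, adjusted p = 0.0611 by limma) and KO+AAV against WT -0.72 (-1.23 to -0.21, adjusted p = 0.154). KO+AAV against KO was -0.06 (-0.57 to 0.45). The lower KO mean rests on KO 1 and KO 5: without them the log2 change was -0.28 (adjusted p = 0.378). It passed the threshold when WT 5 (adjusted p = 0.0463) or KO 4 (adjusted p = 0.0308) was left out.

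The ratio of Nmrk2 to Nampt transcripts re-uses the Nmrk2 values above, whose KO and WT libraries already did not overlap. It is not a separate observation, and no protein was measured. Per kilobase, the ratio of Nmrk2 to Nampt was 0.128 ± 0.0585 in WT, 1.81 ± 1.39 in KO and 0.243 ± 0.124 in KO+AAV. Its range was 0.0844 to 0.227 in WT and 0.747 to 3.58 in KO, with no overlap. KO 1 and KO 5, high in Nmrk2 and low in Nampt, held the highest ratios.

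Nmnat1 and Nmnat3 join the mononucleotide to ATP, in the nucleus and in mitochondria. Nmnat1 (chromosome 4) was at 195, 163, 179.8, 149 and 116 in WT 1 to 5, at 60.2, 144, 125, 119 and 65.9 in KO 1 to 5, and at 135, 144, 109.7 and 138 in KO+AAV 1 to 4. Only KO 1 and KO 5 were far below the WT range, and KO 2, KO 3 and KO 4 overlapped it. Its log2 change in KO was -0.70 (95% interval -1.20 to -0.21, adjusted p = 0.0517), and -0.30 without KO 1 and KO 5 (adjusted p = 0.326). It passed without WT 5, KO 2 or KO 3 (adjusted p = 0.0311, 0.0247 and 0.0457). Nmnat3 (chromosome 9) was at 135 to 252 in WT (median 228), 118 to 216 in KO (median 188) and 165 to 256 in KO+AAV (median 232), with a log2 change of -0.25 in KO (-0.69 to 0.19). Nmnat1 shares 8.4% of its exonic 31-base words with other genes, most with CT010445.1.

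Nadsyn1, Nadk and Cd38 had overlapping groups in all 3 comparisons at 6 months. Nadsyn1, the synthetase of the nicotinic acid route, was at 40.8 to 95.1 in WT, 32.6 to 58.4 in KO and 42.6 to 112 in KO+AAV, and its log2 changes were -0.40 in KO and 0.63 in KO+AAV against KO (adjusted p = 0.175). Nadk, the cytosolic NAD kinase, was the steadiest of the 9 in WT, with a coefficient of variation of 6.17%. Its means were 514 ± 31.7 in WT, 525 ± 42.2 in KO and 549.95 ± 99.8 in KO+AAV, and the 95% interval of its KO change was -0.22 to 0.28 on the log2 scale. Cd38, an ectoenzyme that cleaves NAD, had means of 255 ± 45.7 in WT, 243 ± 26.0 in KO and 214 ± 33.2 in KO+AAV. Its KO change had a 95% interval of -0.37 to 0.25.

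Nnt (chromosome 13, minus strand), the mitochondrial transhydrogenase, had the highest mean level per kilobase of the 9 genes in every group and also a wide spread. It was at 7674, 9841, 7351, 7902 and 4753 in WT 1 to 5, at 3299, 8448, 9276, 8028 and 4218 in KO 1 to 5, and at 6644, 3611, 9683 and 10283 in KO+AAV 1 to 4. In each group the lowest library lay far below the highest, and the groups overlapped. The log2 change in KO was -0.25 (95% interval -0.95 to 0.45), and 0.23 without KO 1 and KO 5. The annotation holds 2 overlapping genes with the symbol Nnt, and 1 row of each table carries it. Some C57BL/6J-derived mice are known to carry a deletion within Nnt, and values per gene hold no information on single exons.

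The spread within groups was shared among several of the genes. KO 1 and KO 5 were the 2 lowest KO libraries in Nampt, Nmnat1, Nmnat3 and Nnt, WT 5 was the lowest WT library in all 4, and KO+AAV 2 was the lowest KO+AAV library in Nampt, Nmnat3 and Nnt but the highest in Nmnat1. WT 5, KO 1 and KO+AAV 2 were also the libraries of highest Malat1 in their groups. In WT 5 the order was different for Nmrk1 and Nadsyn1, which were at their WT maximum there. The first axis of variation within groups, over all tested genes, held 36.7% of the variance, with WT 5, KO 1 and KO+AAV 2 at one end.

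**Figure D2:**
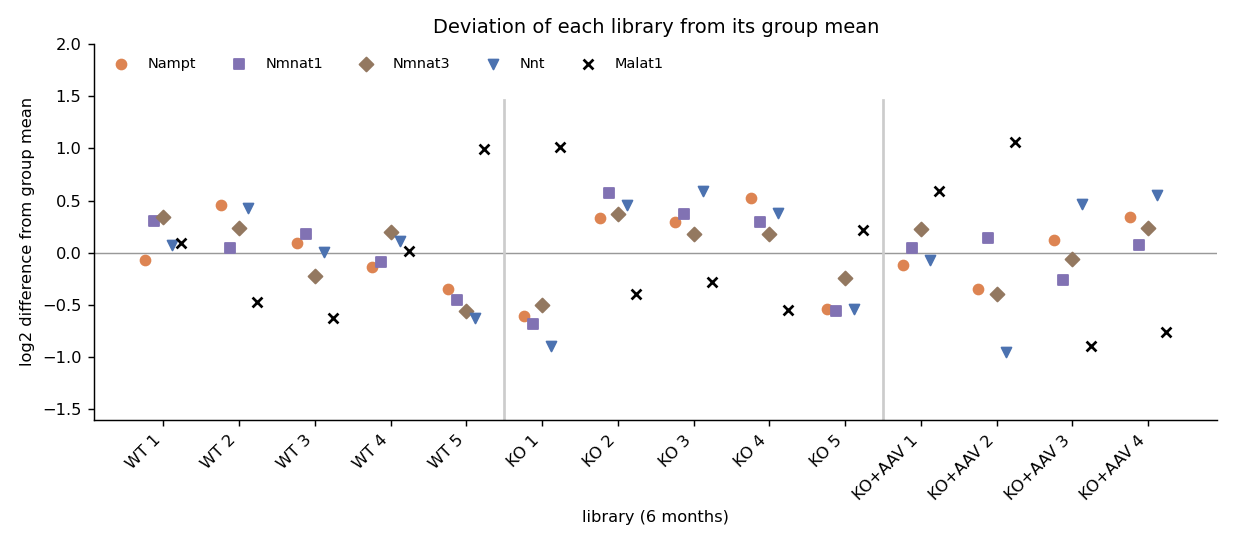
Difference of each 6-month library from its group mean, on a log2 scale, for Nampt, Nmnat1, Nmnat3, Nnt and the nuclear RNA Malat1. The libraries are on the horizontal axis and each symbol is 1 gene; in WT 5, KO 1 and KO 5 the 4 NAD genes lie below 0 while Malat1 lies above it.

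Counted over all 9 genes, 1 passed an adjusted p of 0.05 in KO against WT at 6 months, where 16.3% of all tested genes did. The groups did not overlap for 1 of the 9, against 13.8% of all genes. For KO+AAV against KO, 1 of 9 passed (11.2% of all genes) and 1 of 9 did not overlap (14.1%). For KO+AAV against WT, 0 of 9 passed by limma (1.33% of all genes), and 1 of 9, Nampt, did not overlap (5.4%). In that comparison 2 of 9 had an unadjusted p under 0.05, beside 2454 of all 13419 genes. These shares are close to the background of the tables. The median log2 change of the 9 was -0.25 in KO against WT, beside 0.002 over all tested genes.

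**Figure D3:**
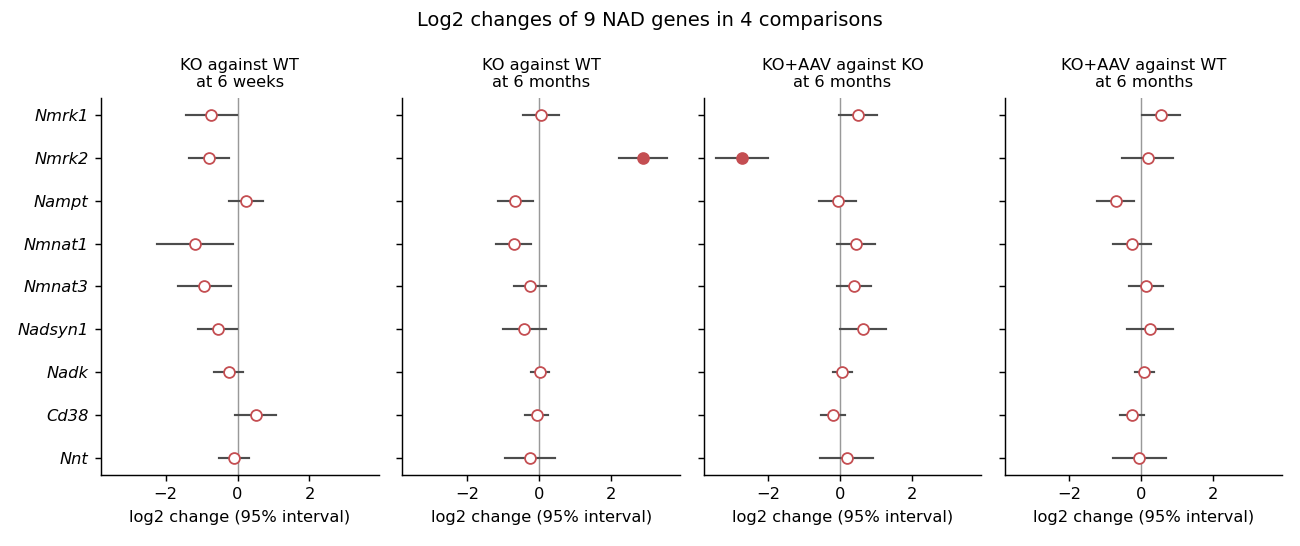
Log2 change of each of the 9 genes with its 95% interval in 4 comparisons, 1 panel each, on a common horizontal axis. Filled points passed an adjusted p of 0.05 over all genes: Nmrk2 in KO against WT (2.90) and in KO+AAV against KO (-2.72) at 6 months; the comparisons share groups of libraries.

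At 6 weeks, Nmrk2 was not higher in KO. It was at 448, 644 and 312 in WT1, WT6 and WT16 and at 282, 234 and 257 in KO2, KO3 and KO4, so that every KO library lay below every WT library. The log2 change was -0.80 (95% interval -1.35 to -0.25), which did not pass the threshold (adjusted p = 0.176 by limma). Without WT6, the highest library, it was -0.54. Nampt overlapped between the groups, at 774, 503 and 605 in WT and 631, 868 and 704 in KO (log2 0.24, -0.23 to 0.70).

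A further 3 genes had lower values in all KO libraries than in all WT libraries at 6 weeks. Nmnat1 was at 31.3, 15.1 and 27.96 in WT and 7.23, 10.5 and 12.7 in KO (log2 -1.18, 95% interval -2.23 to -0.13). Nmnat3 was at 64.4, 46.2 and 43.3 in WT and 33.2, 28.2 and 19.2 in KO (log2 -0.92, -1.66 to -0.18). Nadsyn1 was at 113, 89.4 and 82.9 in WT and 62.9, 70.5 and 58.6 in KO (log2 -0.56, -1.09 to -0.02). In each of these the gap between the lowest WT and the highest KO library was smaller than the range within WT. The values of Nmnat1 were among the lowest of the 9 genes, near the filter of 10.

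Of the other genes at 6 weeks, Nmrk1 was at 61.0, 61.4 and 40.0 in WT and 27.9, 27.5 and 41.4 in KO, and overlapped through WT16 and KO4. Nadk (log2 -0.25), Cd38 (0.51) and Nnt (-0.10) overlapped as well. By limma, 0 of 9 genes passed at 6 weeks, where 0.589% of all tested genes did. An unadjusted p under 0.05 was found for 5 of 9, beside 2045 of all 13242 genes. For 4 of 9 the groups did not overlap, beside 21.2% of all 13242 genes, and the median of the 9 was -0.558 beside 0.005 over all genes. The cardiomyocyte marker sum was between 387280 and 474430 in KO and between 461283 and 700930 in WT at this age. The endothelial sum was between 21102 and 25896 in KO and between 12647 and 16442 in WT, and the fibroblast sum between 41389 and 47585 in KO and between 31774 and 38461 in WT, with no overlap in either. The sums of 7 T and NK cell markers (29.7 to 39.6 in KO, 18.3 to 28.4 in WT) and of 8 skeletal muscle markers (70.7 to 122 and 56.4 to 69.6) did not overlap either, at low levels. The atrial sum overlapped, at 121834 to 225584 in KO and 95732 to 183312 in WT. So did the adipocyte sum, at 556 to 2131 in KO and 294 to 693 in WT. The part of these marker sums in the values of the 9 genes was not tested. On simulated data with independent noise and few changed genes, 23 of 100 changes of 1 log2 unit were called at 6 weeks and 57 of 100 at 6 months. Changes of that size can be missed. In the real KO against WT at 6 months 2189 genes passed and libraries shared an axis of variation, so these rates need not hold there.

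**Figure D4:**
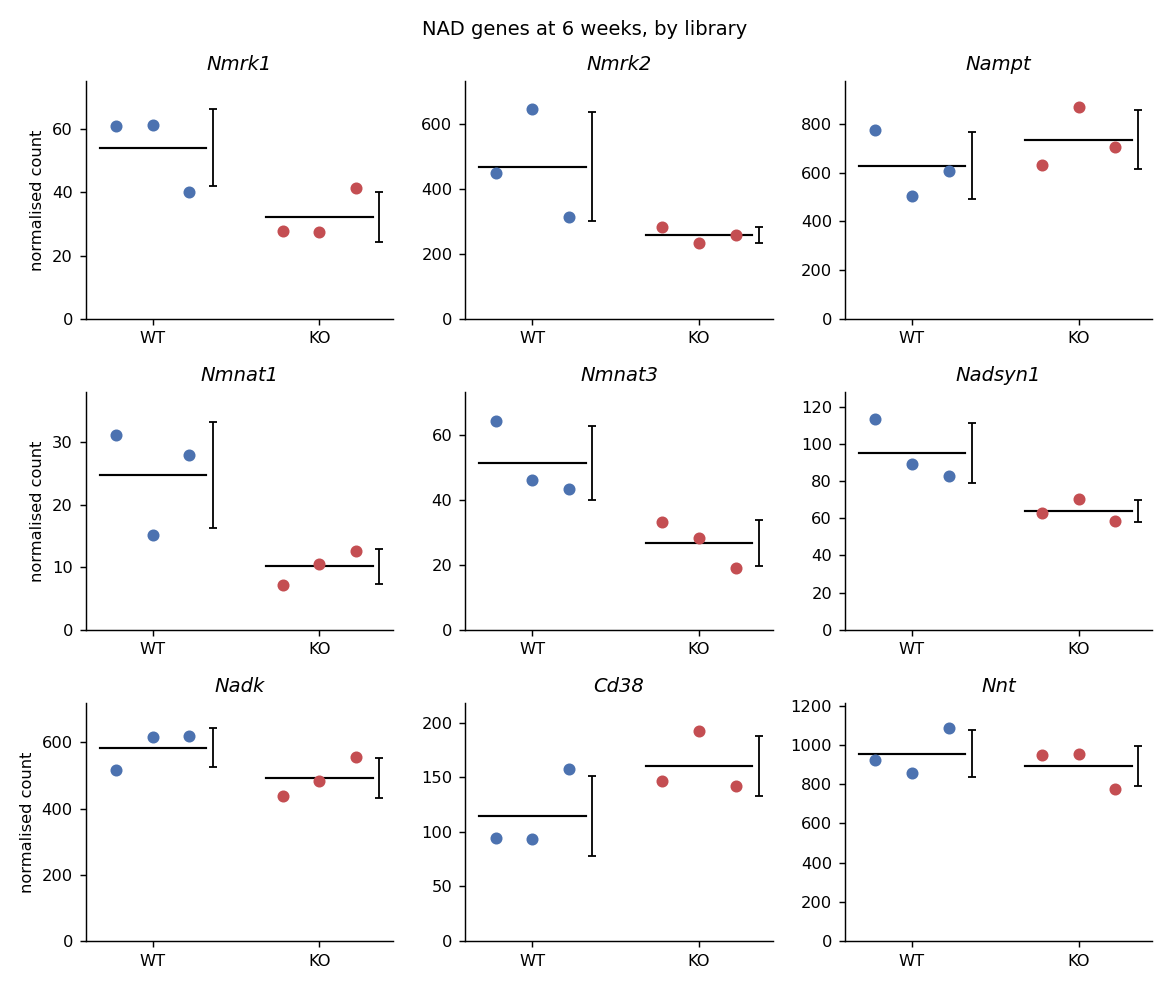
Normalised counts (linear axes from 0) of the 9 genes in each library at 6 weeks, with WT in blue and KO in red, lines for the means and bars of 1 SD. In the Nmrk2, Nmnat1, Nmnat3 and Nadsyn1 panels all 3 KO points lie below all 3 WT points; the scale is separate from that of the 6-month table.

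The knockout change was compared between the ages by the difference of the log2 changes. The summed atrial markers in WT were at 95732 to 183312 at 6 weeks and 5916 to 9973 at 6 months, on separate scales. Age, sequencing table and the tissue taken therefore cannot be told apart in these differences. For Nmrk2 the knockout change was 3.70 log2 units higher at 6 months than at 6 weeks (95% interval 2.86 to 4.53, adjusted p = 3.52e-06). Nmrk2 was the only 1 of the 9 to pass, and 4.08% of all genes tested at both ages did. For Nampt the difference was -0.90 (-1.54 to -0.25, adjusted p = 0.107), with a positive log2 change at 6 weeks and a negative one at 6 months. The log2 changes of Nmrk2 and Nampt had opposite signs at each age, although only that of Nmrk2 at 6 months passed. The other 7 genes had differences between -0.57 (Cd38) and 0.78 (Nmrk1), each with an interval that included 0.

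The order of levels per kilobase of the longest coding transcript was led by Nnt in all groups. In WT at 6 months the mean per kilobase was 2166 ± 525 for Nnt, 634 ± 138 for Nampt and 163 ± 10.1 for Nadk, and the ranges of these 3 genes did not overlap. Nmnat3 (94.1 ± 22.8), Nmrk2 (79.4 ± 33.6), Cd38 (78.1 ± 13.97) and Nmnat1 (60.5 ± 11.4) followed, each overlapping the next, and Nadsyn1 (24.1) and Nmrk1 (22.6) came last. In KO at 6 months Nmrk2 stood second of the 9, at 600.6 ± 265, overlapping Nnt above it and Nampt (415 ± 141) below it. In KO+AAV the order down to Nmnat1 was that of WT, with Nmrk2 at 88.0 ± 31.1 and Nampt at 384 ± 79.1. In WT at 6 weeks Nmrk2 also stood second, at 252 ± 90.1 beside 139 ± 30.2 for Nampt, and their ranges overlapped. In KO at 6 weeks Nmrk2 ranked 4 of 9, at 139 ± 13.0 beside 162 ± 26.8 for Nampt, and overlapped Nadk, the gene between them.

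Genes with the most alike pattern to 4 of the 9 were found by Pearson's r of log2 values over the 14 libraries at 6 months, which share groups and the axis above. For Nmrk2 the closest were Tnfrsf12a, a receptor of the tumour necrosis factor family (r = 0.978), Otulin (0.973), the actin regulator Enah (0.970), Rhou (0.967) and the thyroid hormone deiodinase Dio2 (0.962). After removal of the group means, r was 0.959 for Tnfrsf12a, 0.885 for Otulin and 0.643 for Dio2. Nampt was closest to Angpt1 (0.974), Klhl7, Ctnna1, Acss1 and Stat5b, Nnt to genes that included Gpd1l (0.929), Pex19, Lrrc57 and Paqr9, and Cd38 to Slc52a3 (0.873), S1pr1, Ldb2, Dnaja1 and Rps27. For Nampt and Nnt, r of the genes named here was at least 0.941 with group means removed. These are descriptions over libraries that differ in the same ways.

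Around the 9 genes, 95 other genes of NAD metabolism in 9 lists were examined, of which 84 were tested at 6 months. In KO against WT, 7 rose and 16 fell, with a median log2 change of -0.133; at equal library totals, 9 rose and 12 fell. The 23 calls are 27.4% of those tested, beside 16.3% of all genes, of which 1091 rose and 1098 fell. The lists were chosen with earlier results of these data known. Their shares, here and for each list below, are therefore descriptions and support nothing further. In KO+AAV against KO, 11 rose and 4 fell, 17.9% beside 11.2% of all genes, with a median of 0.128. Of the 15 calls in number, 9 were left without KO 5, 7 without KO+AAV 1 and 3 among low-Xist libraries. In KO+AAV against WT, 1 rose (1.19%, beside 1.33% of all genes), and the count was 2 without WT 5, KO 1 or KO 2. At 6 weeks 0 of 86 passed by limma, with 10 at an unadjusted p under 0.05, beside 2045 of all 13242 genes. At 6 months the cardiomyocyte and mural cell marker sums were lower and the atrial sum higher in KO, as given above, and their part in these counts was not tested.

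Of 9 genes listed for the kynurenine route, 2 were tested at 6 months, and 0 of these passed by limma in KO. Afmid, 1 of the 2, rose by 0.89 in KO+AAV against KO (adjusted p = 0.0170 by limma). Of the nicotinic acid route and the NAD consumers, some genes fell and some rose. Naprt, which starts the nicotinic acid route, was at 205, 149, 192, 205 and 248 in WT and 140, 109, 146, 112 and 99.4 in KO. It fell by 0.71 on the log2 scale (adjusted p = 0.00779) and rose by 0.82 in KO+AAV against KO. Nadk2, the mitochondrial NAD kinase, had a log2 change of -0.80 that did not pass (adjusted p = 0.0558). Of 25 tested consumers, 2 rose and 3 fell in KO, a share close to the 16.3% of all genes. The mitochondrial deacylase Sirt3 was at 524 to 679.7 in WT, 312 to 385 in KO and 528 to 658 in KO+AAV, with no overlap between KO and either group (log2 -0.73 and 0.72). Parp3 (log2 0.86) and Parp9 (0.80), of the poly(ADP-ribose) polymerase family, rose in KO. In KO+AAV against KO their log2 changes were -0.35 and -0.34, which did not pass. The muscle ADP-ribosyltransferase Art1 fell by 0.53 in KO and rose by 0.59 in KO+AAV against KO.

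In a list of nucleotide hydrolysis, riboside handling and NADH repair, 4 of 13 tested genes rose and 1 fell in KO. The share was 38.5%, beside 16.3% of all genes. Enpp1, an ectoenzyme that hydrolyses nucleotides, was at 68.5 to 100.4 in WT, 206 to 287 in KO and 76.8 to 188 in KO+AAV. It rose by 1.43 in KO and fell by 1.15 in KO+AAV against KO. Nt5e, the surface 5′-nucleotidase, rose by 1.25 in KO and was highest in KO 1 and KO 5 (690.01 and 904), and Nt5c2 rose by 0.42. Apoa1bp, the repair enzyme of hydrated NADH also named Naxe, fell by 0.43. In KO+AAV against KO, Nt5e and Nt5c2 fell by 0.93 and 0.44, and Apoa1bp (log2 0.41) did not pass. In the lists of nicotinamide clearance and transport, 0 of 3 and 0 of 6 passed by limma in KO. An unadjusted p under 0.05 was found for 1 and 2 of them, beside 3846 of all 13419 genes. Nnmt, which methylates nicotinamide, had a log2 change of 0.79 (adjusted p = 0.0982).

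**Figure D5:**
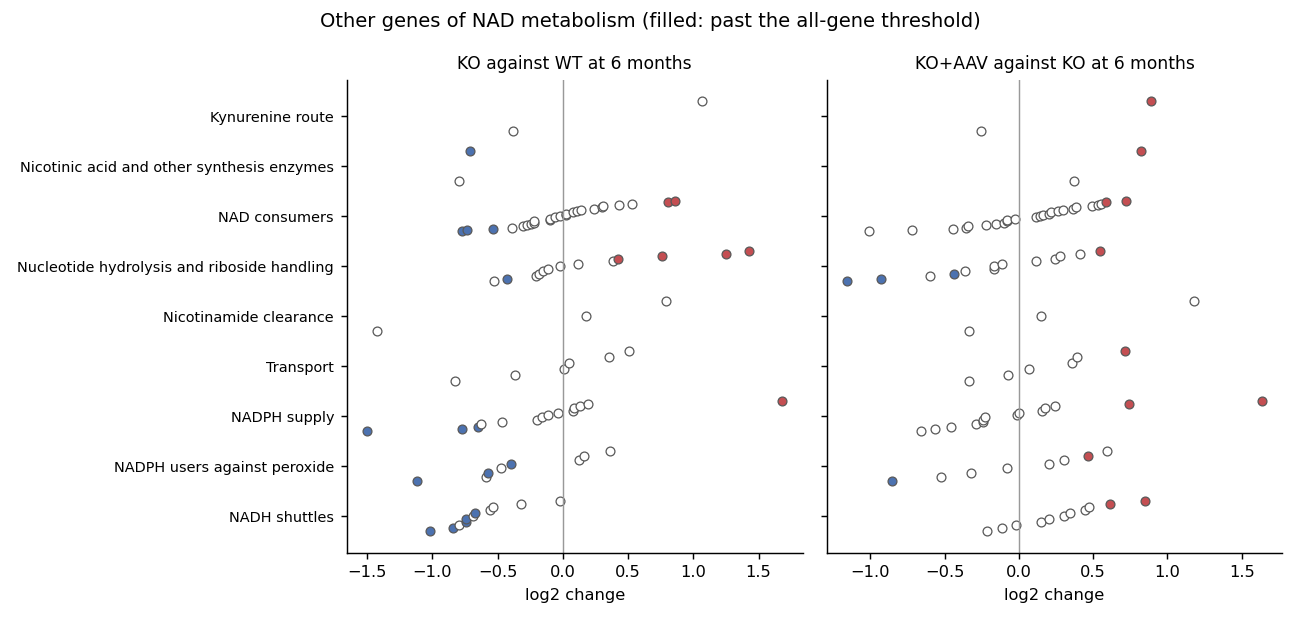
Log2 change of the other tested genes of NAD metabolism, 1 point per gene, by list, in KO against WT (left) and KO+AAV against KO (right) at 6 months; filled points passed an adjusted p of 0.05 over all genes, red above 0 and blue below. The genes in the list of NADH shuttles, Ldha and Ldhb among them, lie at or below 0 in KO against WT. Both panels share the KO libraries.

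In the list named NADPH supply, 1 of 14 genes rose and 3 fell in KO (28.6%, beside 16.3% of all genes). Which cofactor each enzyme of the list uses was not examined. Mthfd2, a mitochondrial folate dehydrogenase, was at 16.4 to 53.6 in WT, 78.4 to 135 in KO and 79.0 to 175 in KO+AAV. It rose by 1.68 in KO and by 1.85 in KO+AAV against WT, the 1 gene of the lists to pass in the last comparison. Idh2, the mitochondrial NADP isocitrate dehydrogenase, fell by 0.77 in KO and rose by 0.74 in KO+AAV against KO. Aldh1l1, a folate enzyme that makes NADPH, fell by 1.50, and Me3, mitochondrial malic enzyme, by 0.65. In KO+AAV against KO, Aldh1l1 rose by 1.63, and Me3 (log2 0.24) and Mthfd2 (0.18) did not pass. Of 8 users of NADPH against peroxide, 3 fell (37.5%, beside 16.3% of all genes). Glrx fell by 1.12, Txnrd2, the mitochondrial thioredoxin reductase, by 0.57, and Glrx2 by 0.40. In KO+AAV against KO, Txnrd2 rose by 0.46, and Glrx (log2 0.31) and Glrx2 (0.20) did not pass.

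The list of NADH shuttles also held the lactate dehydrogenase genes Ldha and Ldhb. It had the lowest median of the larger lists in KO, -0.687, with 5 of 11 genes passing, all lower. The share was 45.5%, beside 16.3% of all genes. Ldhb, the lactate dehydrogenase subunit of heart muscle, was at 22023 to 28900 in WT, 10987 to 14572 in KO and 17986 to 27373 in KO+AAV. It fell by 1.02 in KO and rose by 0.85 in KO+AAV against KO. The malate dehydrogenases Mdh1 and Mdh2 fell by 0.74 and 0.67, and the carrier Slc25a11 by 0.84. In KO+AAV against KO, Mdh2 rose by 0.62, and Mdh1 (log2 0.34) and Slc25a11 (0.47) did not pass. Art4, Nt5c and Got1 also passed in KO (log2 -0.77, 0.76 and -0.74) and were named after their values were seen. In KO+AAV against KO their log2 changes were 0.49, -0.17 and 0.20, and none passed. Between the ages, the knockout change differed for 5 of the 83 genes tested at both, 6.02% beside 4.08% of all genes. Parp3, Parp9 and Enpp1 were higher at 6 months (by 1.37, 1.22 and 1.68), and for Glrx and Ldhb the difference was -1.22 and -0.98.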

How the data were processed

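RNA of 20 hearts was sequenced as 150 bp read pairs from stranded poly(A) libraries, per the labels' protocols. Normalised counts for each gene were deposited by the authors in 2 tables, a signal of fractional values at or above 0, each normalised on its own; the build was mm10, per the submitters' processing notes. The sources used here name no aligner, counter, annotation or strand setting. The tables do not hold whole reads, so depth is unknown and no counting intervals are given. The 6-week columns matched a group and no single sample. No column was left out.

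Values were transformed as log2(value + 1), so fold changes of low genes are understated. Genes at 10 or more in at least 4 libraries (6 months) or 3 (6 weeks) were tested by limma 3.58.1 in R 4.3.3 with a mean-variance trend, two-sided, with Benjamini-Hochberg adjustment over all genes and a threshold of 0.05. At 6 months 1 model held all 3 groups. Age differences used the combined standard error with Welch-Satterthwaite degrees of freedom. Each p value sets a difference between groups against the spread between libraries within groups, moderated over genes. Python 3.11.15 with pandas 2.3.3 drew up tables and plots, and the fit was tested on simulated data. Genome positions are from GENCODE on GRCm38.

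The 9 genes and the lists were chosen with earlier results of these data known. Named genes were Sorbs2, the 9 genes, up to 4 genes of smallest p per list and comparison, and the 5 most alike genes for 4 of the 9. Marker lists covered cardiomyocytes, fibroblasts, endothelium, macrophages, neutrophils, B cells, T and NK cells, mural cells, skeletal muscle, atria and adipocytes. In KO against WT at 6 months, with the genes that rose and fell, these gave 0 and 4 of 10, 6 and 0 of 10, 0 and 0 of 10, 1 and 0 of 10, 0 and 0 of 5, 0 and 0 of 3, 0 and 0 of 1, 1 and 2 of 8, 0 and 1 of 3, 1 and 0 of 2, and 0 and 0 of 1 tested. Of all tested genes, 16.3% passed in that comparison. Alternatives covered scaling, pseudocounts, filter, variance trend, covariates, the replicate block and left-out libraries. A gene among those with a pattern like that of Nnt is not reported here.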

Additional observations from a re-analysis of the deposited data

Results flagged for a closer look

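Nadk in KO+AAV 2 stood apart from the other libraries of its group, at 698 beside 488 to 522, with a gap of 0.839 of the group's range. This was 1 of 27 groups of 4 or 5 libraries examined over the 9 genes, and chance flags about 1 in 20. In no comparison did Nadk reach the threshold, with or without that library.

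The knockout change of Nmrk2 differed between the ages, by a test of the difference itself: it was 3.70 log2 units higher at 6 months than at 6 weeks. The 6-week libraries came from a separately normalised table. Of 5 atrial markers, 5 passed the filter on low values at 6 weeks and 2 at 6 months. Their sum in WT was 95732 to 183312 at 6 weeks and 5916 to 9973 at 6 months, on separate scales. Age, sequencing table and the tissue taken cannot be told apart.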

How the results depend on the processing

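Over 45 results of single genes (9 genes, 5 comparisons) and 855 values under alternatives, 807 kept direction and side of the threshold, 8 passed it newly and 40 changed sign, all 40 of results that had not passed. Nmrk2 passed in all 26 alternatives of KO against WT at 6 months (log2 2.46 to 3.11) and all 25 of KO+AAV against KO (-2.91 to -2.29). The 1 call among the 9 genes in KO against WT became 2 with Xist class as covariate and 3 with the replicate block, and 1 to 3 when single libraries were left out (3 without WT 5; 2 without KO 2, KO 3 or KO 4). The added calls were Nampt and Nmnat1, whose adjusted p were 0.0308 to 0.378 and 0.0247 to 0.326 over the alternatives. Replicate numbers did not pair the groups at 6 months: 7 of 13 like-numbered pairs correlated above 0.1 (-0.391 to 0.253) and 0 of 14 libraries correlated best with their own number. No paired analysis was possible at 6 weeks because the columns carry no replicate numbers of the labels. The 15 other NAD genes called in KO+AAV against KO became 6 with the Xist covariate and 3 among low-Xist libraries alone. They became 7 to 18 with single libraries left out (7 without KO+AAV 1, 9 without KO 5). The 1 called in KO+AAV against WT became 2 without KO 1 and KO 5 and 0 among low-Xist libraries. It became 1 to 2 with single libraries left out (2 without WT 5, KO 1 or KO 2). The 0 at 6 weeks became 1 with the Xist covariate. Scaling to equal library totals moved the median of all genes by 0.156 in KO against WT at 6 months.

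The changes of sign, in log2 units, are given by comparison; the Malat1 omission, of the library of highest Malat1 in each group, was added after the data were seen. In KO against WT at 6 months, Nmrk1 was -0.13 with quantile normalisation and -0.10 to 0.22 with single libraries left out. Nadk was -0.023 with the Xist covariate, -0.039 with KO 1 and KO 5 omitted, -0.010 with the Malat1 omission and -0.0035 to 0.071 with single libraries left out. Cd38 was 0.10 with equal totals, 0.12 with low-Xist libraries and -0.13 to 0.014 with single libraries left out. Nnt was 0.23 with KO 1 and KO 5 omitted. In KO+AAV against KO at 6 months, Nampt was 0.048 with the Xist covariate and -0.21 to 0.069 with single libraries left out. Nadk was -0.026 with equal totals, -0.033 with the Malat1 omission and -0.067 to 0.11 with single libraries left out. Nnt was -0.29 with KO 1 and KO 5 omitted, -0.012 with low-Xist libraries and -0.038 to 0.50 with single libraries left out. In KO+AAV against WT at 6 months, Nmrk2 was -0.20 with the Malat1 omission and -0.017 to 0.39 with single libraries left out. Nmnat3 was -0.066 with low-Xist libraries and -0.0042 to 0.27 with single libraries left out. Nadk was -0.043 with the Malat1 omission and -0.037 to 0.14 with single libraries left out. Cd38 was 0.10 with low-Xist libraries. Nnt was 0.014 with equal totals, 0.034 with quantile normalisation, 0.10 with the Malat1 omission and -0.25 to 0.25 with single libraries left out. In KO against WT at 6 weeks, Nnt was 0.10 with the Malat1 omission and -0.17 to 0.00091 with single libraries left out. Between the ages, Nnt was 0.044 with quantile normalisation. The cause of these changes was not tested.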
